A study of Saccharomyces cerevisiae with 27 samples.

Results

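Trimethylation of lysine 79 of histone H3 (H3K79me3) was mapped in the wild type budding yeast strain BY4741 by chromatin immunoprecipitation and sequencing (ChIP-seq), and its level over every gene was set beside the gene's RNA and length. The map rests on 2 of the 27 libraries of the series, 1 H3K79me3 precipitate and 1 input, both labelled BY4741 and wild type in genotype. As a laboratory strain BY4741 lacks the marker genes LEU2, MET17 and URA3 and part of HIS3, and no agent is named in the labels. Cells had grown exponentially in YPD, a rich glucose medium, to an OD600 of 0.8 to 1 and were fixed with formaldehyde, and chromatin was sonicated before it was bound by an antibody from the Grunstein laboratory. Set beside it are H3K4me3 in BY4741, with 1 library over the same input, and H3K79me3 in a strain whose ARP5 gene, for a subunit of the INO80 complex, is deleted by the library's title (its genotype label reads WT), with 1 library over 1 input of its own, while CY337, another wild type strain of the series, gives a second measure of RNA. The series as a whole asks what that chromatin remodelling complex does at silent chromatin, and holds 19 RNA and 8 ChIP libraries of wild type and deletion strains. Of 6692 genes in the authors' coordinates, 28 belonged to the mitochondrial genome and 434 nuclear genes were shorter than 300 bp. The remaining 6230 genes are described here, all of them with an FPKM value (RNA fragments scaled to the length of the transcript and the size of the library) for BY4741.

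In budding yeast H3K79 is methylated by a single enzyme, Dot1, which acts on the face of the nucleosome core and is stimulated by ubiquitin on histone H2B. The ubiquitin is placed by Rad6 and Bre1 with help from the Paf1 complex, which travels with RNA polymerase II, and so the mark is known from the bodies of transcribed genes. It is kept low in chromatin silenced by the Sir proteins, where Sir3 binds the unmethylated nucleosome face.

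Each value is the authors' log2 ratio of precipitate over input in windows of 50 bp, and a gene's level is the mean of its windows, weighted by shared bases. A value of 0 is equal signal after the authors' scaling. That scaling was not given, so 0 is not known to be the level of no enrichment. With 1 precipitate and 1 input there is no SD, no n and no test, and read totals do not come with the files, so the depth is unknown. Spreads below are spreads over genes, which are not replicates. The ratio is over input DNA, so the number of histones on the DNA and the share of them that is methylated cannot be told apart.

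H3K79me3 lay over genes and was low between them. Windows within genes had a median of 0.44 and windows between genes a median of -1.67, over 177500 and 63934 windows. Among the 82711 windows in the authors' list of significant windows, 98.8% lay within genes, and these made up 46.0% of the windows within genes against 1.53% of those between. The mitochondrial genome, whose DNA carries no histones, had a median of -5.28 over 1716 windows.

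Over the 6230 genes the level had a median of 0.13, with the middle 50% of genes between -0.55 and 0.59 and a whole range from -5.16 to 1.40. The 500 bp before the gene had a median of -1.37 and the 500 bp after it -0.89. The gene stood above its upstream flank in 88.0% of genes, by a median of 1.35, and above its downstream flank in 79.1%, by a median of 0.87. The level thus differed more between the gene and the 500 bp before it than between the gene and the 500 bp after it. Both flanks are fixed stretches that can run into neighbouring genes, so their values are not of DNA between genes alone. The part of the neighbours' own bodies in these values was not tested. The gap after genes was shallow where a convergent neighbour followed, with a downstream median of -0.40 over 2840 genes, and deep where the next gene pointed the same way, with -1.24 over 2646 genes. Upstream flanks were low at both kinds of promoter, with medians of -1.47 between divergent genes and -1.37 behind a tandem gene.

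Along the gene the mark formed a broad dome. The median over genes was lowest at -1.66 between 200 and 100 bp before the start, stood at -0.56 in the first 5% of the gene, reached 0.43 between 50% and 55% of its length, and returned to -0.57 in the last 5%. It was lowest again after the gene, at -1.25 between 100 and 200 bp past the end. When each gene was cut into 3 equal parts the medians were -0.02, 0.41 and 0.02, and the middle part was the highest in 66.7% of genes. That share was only 40.1% in the 1838 genes of 300 to 749 bp. It was 73.0% in genes of 750 to 1249 bp and 77.2% to 86.0% in the longer classes. In the lowest quartile of FPKM it was 50.5%, and in the other quartiles 70.4% to 73.3%. The start and end are those of the coding sequence, so that the first and last steps into the gene do not start at the transcript's ends. H3K4me3, a mark of promoters and gene starts, was mapped in the same strain against the same input and had another shape, with a median of 1.58 between 5% and 10% of the gene and -1.51 in its last 5%.

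**Figure D1:**
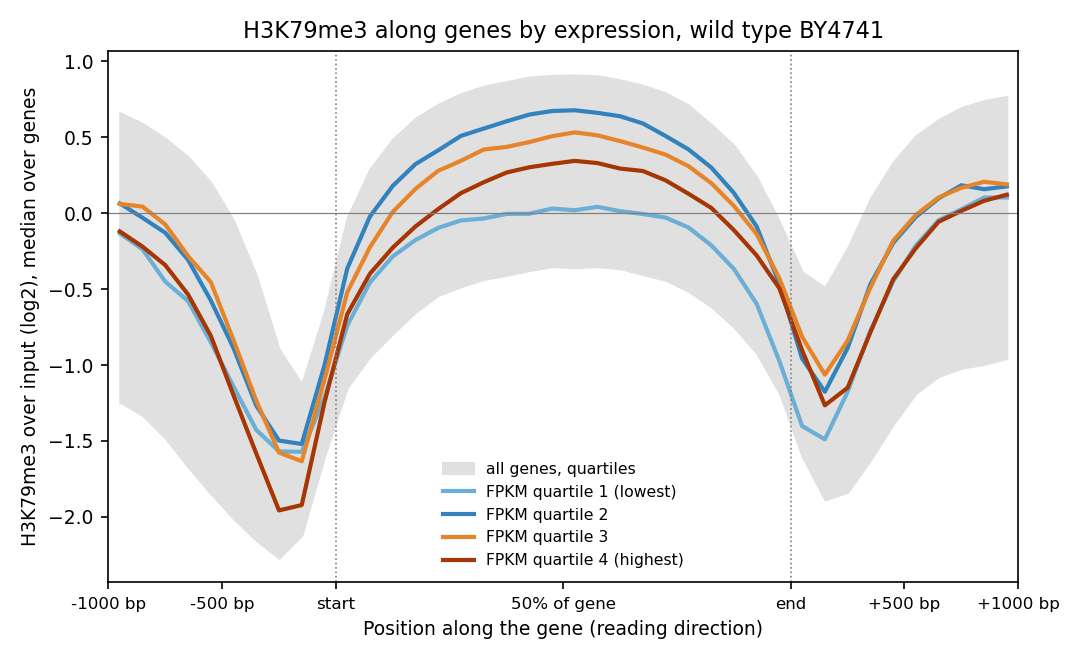
Median log2 ratio of H3K79me3 over input along genes in BY4741, with genes cut into 20 equal parts and flanks in steps of 100 bp, for 4 quartiles of FPKM (lines) and the middle 50% of all genes (grey). All 4 lines dip before the start and after the end, and inside the gene quartile 2 is the highest with 0.68 and quartile 1 the lowest with 0.04.

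Expression alone did not order the genes. The quartiles of BY4741 FPKM reached up to 13.4, 34.1, 98.3 and 72162 FPKM, and their median levels of H3K79me3 were -0.21, 0.34, 0.19 and 0.03. The second quartile was thus the highest, and the top quartile stood only 0.24 above the bottom one. Genes with at least 50% of their length in significant windows numbered 2159, or 34.7% of all, and made up 28.1%, 45.6%, 38.3% and 26.6% of the 4 quartiles from the lowest up. Genes with a mean below 0 numbered 2741, or 44.0% of all, with 56.8%, 32.4%, 38.5% and 48.3% in the same order. The bottom quartile was also the most spread, with its middle 50% between -1.34 and 0.45. Across the 6230 genes Spearman's rank correlation between FPKM and the level was 0.085, a description over genes that share the same 2 ChIP libraries and the same pooled RNA column. H3K4me3 rose through the same quartiles, with median levels of -1.82, -0.79, 0.23 and 1.24. These H3K4me3 levels are means over whole genes and also differed by gene length. Their medians were 1.05 in genes of 300 to 749 bp and -2.15 in genes of 3000 bp and over. Among genes of 1250 to 1999 bp, H3K4me3 had medians of -1.25, -0.58, -0.25 and 0.24 in the 4 quartiles, a narrower range.

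Gene length differed between the quartiles too, with medians of 1563, 1572, 1104 and 765 bp, and length went with the mark far more closely than expression did. The medians were -0.52 for 1838 genes of 300 to 749 bp, 0.03 for 1511 genes of 750 to 1249 bp, 0.31 for 1556 genes of 1250 to 1999 bp, 0.64 for 800 genes of 2000 to 2999 bp and 0.71 for 525 genes of 3000 bp and over. Of these classes, 7.94%, 22.4%, 44.2%, 70.9% and 80.2% of genes had at least 50% of their length in significant windows. The rank correlation between length and level was 0.57, and between length and FPKM -0.30, over the same 6230 genes.

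Among genes of like length the bottom FPKM quartile was the lowest in every class, and in the 3 shorter classes the median was higher in each further quartile. For genes of 300 to 749 bp the medians in the 4 FPKM quartiles were -1.5, -0.68, -0.46 and -0.28. For genes of 1250 to 1999 bp they were -0.45, 0.33, 0.53 and 0.56, so that most of the step lay between the first quartile and the second. In the longer classes the top quartile was not the highest, with 0.37, 0.68, 0.90 and 0.74 for genes of 2000 to 2999 bp and 0.60, 0.91, 0.87 and 0.79 for genes of 3000 bp and over. The top quartile stood above the bottom one by 1.22, 1.15 and 1.00 in the 3 shorter classes and by 0.37 and 0.19 in the longer ones, where the top quartile held only 45 and 7 genes. The rank correlation with FPKM within a class ran from 0.32 to 0.43. H3K79me3 in the arp5 deletion strain had differences of 0.91, 0.78, 0.70, 0.32 and 0.22 between the same quartiles of BY4741 FPKM.

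**Figure D2:**
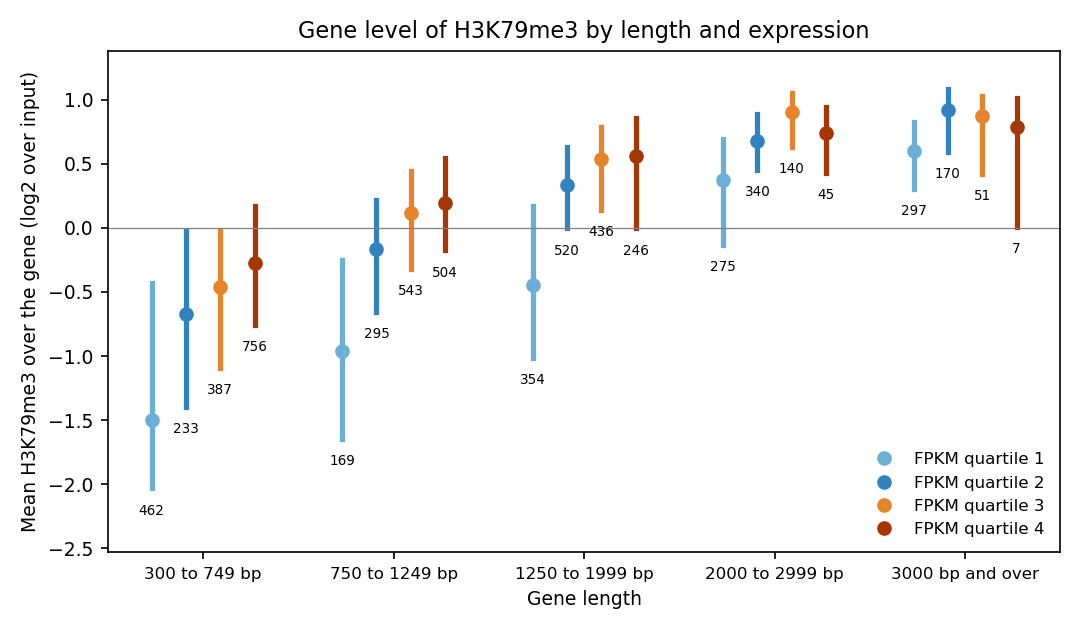
Gene level of H3K79me3 (log2 over input) for 5 classes of gene length and 4 quartiles of FPKM, with points for the median over genes, bars for the middle 50% and the number of genes under each bar. In the shortest class the medians run from -1.5 to -0.28, and in the longest all 4 lie between 0.60 and 0.91.

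The relation to expression was not monotonic over its whole range. Among genes of 750 to 1999 bp, in steps of FPKM chosen after the values had been seen, the median was -1.54 for 66 genes under 2 FPKM, -0.94 from 2 to 5, -0.48 from 5 to 10, 0.06 from 10 to 20 and 0.21 from 20 to 50. It was highest, 0.45, for the 347 genes from 100 to 200 FPKM. Above that it came down again, to 0.35 from 200 to 500, 0.04 for 45 genes from 500 to 1000 and -0.14 for 120 genes of 1000 FPKM and over. The upstream flank of those last genes had a median of -3.00, against -1.38 for genes from 100 to 200 FPKM. The genes of 1000 FPKM and over thus stood below those of 100 to 200 FPKM, both over the gene and before it, and were also shorter, with a median of 945.5 against 1131 bp.

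The level climbed with distance from the ends of the gene. In each length class the median was near its lowest before the start and climbed over the first 500 bp of the gene. Between 400 and 500 bp in, it stood at -0.15, 0.29, 0.51, 0.73 and 0.73 from the shortest class to the longest. In the shortest class only the 800 genes of at least 500 bp enter that step, of 1838 in the class. Genes of 3000 bp and over went on to 1.01 between 1000 and 1100 bp and came down to 0.72 between 2900 and 3000 bp, and their last 100 bp had a median of -0.72. In every class the median came down again towards the end of the gene. Counted from the nearer end, genes that overlap no other had a median of -0.49 in the outer 100 bp (5046 genes). It was 0.19 from 200 to 300 bp (4277 genes) and 0.54 from 400 to 500 bp (3131 genes). Further in it was 0.96 from 1000 to 1100 bp (915 genes) and 1.02 from 1400 to 1500 bp (425 genes). Shorter genes drop out at each step, so the later medians are of ever longer genes. In the 425 genes of 3000 bp and over, present at every step, it went from -0.35 in the outer 100 bp to 1.02. At 400 to 500 bp from the nearer end the classes from 750 bp up had medians of 0.41, 0.52, 0.64 and 0.58. Only genes of at least 1000 bp that overlap no other enter there, 642 of them in the class of 750 to 1249 bp. Over the whole gene the levels of these classes ran from 0.03 to 0.71, but over all their genes, so the ranges are not of the same genes. At 400 to 500 bp from the nearer end the FPKM quartiles had 0.18, 0.60, 0.70 and 0.70, with the bottom quartile apart and the upper 3 close together. These medians are over 831, 1068, 796 and 436 genes, again without the genes under 1000 bp. In genes of 2000 bp and over, the bottom quartile was at 0.81 between 1000 and 1100 bp into the gene, and the other quartiles at 1.06, 1.13 and 1.12.

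**Figure D3:**
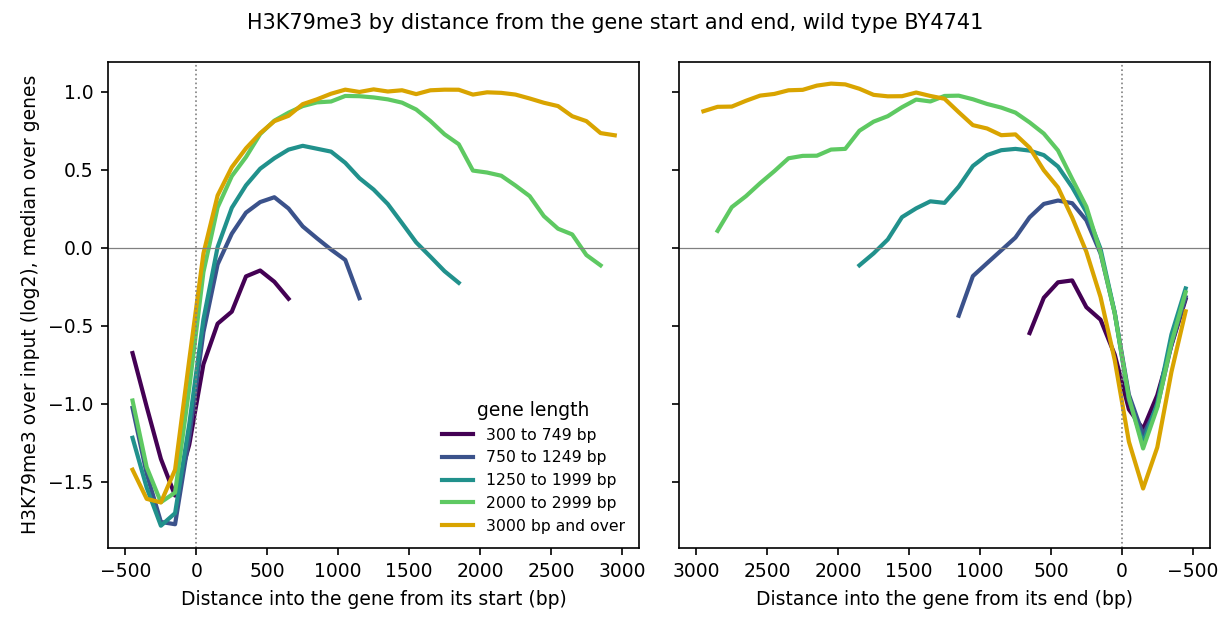
Median log2 ratio of H3K79me3 over input in steps of 100 bp from the gene start (left) and the gene end (right), for 5 classes of gene length. The lines of genes of 2000 bp and over run together to about 0.73 between 400 and 500 bp from the start, and genes of 3000 bp and over reach 1.01 between 1000 and 1100 bp before they come down towards the end.

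Among genes of at least 500 bp, WHI3 came first with 1.40. WHI3 (YNL197C, chromosome XIV, 267608 to 269593, minus strand, sacCer3) encodes an RNA-binding protein that holds back the G1 cyclin Cln3, and its windows lay between 0.53 and 1.90, 100% of its length in significant windows. NAB3 (YPL190C, chromosome XVI, 185317 to 187725), which ends transcription of short non-coding RNAs, followed with 1.37. TUP1 (YCR084C, chromosome III, 260311 to 262452) had 1.36 and CYC8 (YBR112C, chromosome II, 462870 to 465770) 1.32, and their proteins form a single corepressor complex. BFR1, which encodes a protein bound to messenger RNA on polysomes, had 1.34, and DHH1, for a helicase of messenger RNA decay, 1.33. FHL1, for a regulator of ribosomal protein genes, had 1.32, SEC31, for the coat of COPII transport vesicles, 1.28, the ubiquitin ligase gene RSP5 1.28, KRI1, needed for ribosome assembly, 1.28, SNF2, for the ATPase of the SWI/SNF remodelling complex, 1.27, and YTA7, for a chromatin-bound ATPase, 1.26. RRP5, for a ribosome assembly factor, came next, just outside these 12, with 1.25.

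These 12 genes were between 1413 and 5112 bp long, had 8.91 to 244 FPKM and were 88.5% to 100% covered by significant windows. They differed widely in RNA, since FHL1 and SNF2 fell in the bottom FPKM quartile with 8.91 and 9.75 FPKM and BFR1 and KRI1 in the top one with 244 and 109. They differed in H3K4me3 as well, from -2.26 in SNF2 to 0.75 in BFR1. REA1 (YLR106C, chromosome XII, 349006 to 363738), the longest gene with 14733 bp and an AAA ATPase of ribosome assembly, had 1.14 at 9.80 FPKM. All 12 also stood in the highest 10% of genes in the arp5 library, which is another genotype and so not a replicate.

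Among genes of at least 500 bp the lowest levels were found mostly in short ones. YPL025C (chromosome XVI, 502473 to 503030) had -4.61, and UTR5 (YEL035C, chromosome V, 85045 to 85545) -4.22. SHR5 (YOL110W, chromosome XV, 109176 to 109889), which encodes a subunit of the palmitoyltransferase for Ras, had -3.96 although its RNA stood at 52.0 FPKM. HTC1 (YPL067C) had -3.65 at 58.0 FPKM, and YKR041W and YKR040C, which overlap each other on chromosome XI, had -3.48 and -3.25. PUT4 (YOR348C, chromosome XV, 986899 to 988782), the proline permease gene, had -2.87 over 1884 bp at 1.06 FPKM and was the longest of the 12. YOR318C had -2.80, PHO4, for the activator of phosphate-starvation genes, -2.70, SCS3, a gene of lipid metabolism, -2.66, RRN5, for a factor of RNA polymerase I transcription, -2.66, and ARG80, for a regulator of arginine genes, -2.65. NAT4, for a histone acetyltransferase, came next with -2.65.

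All 12 lowest genes had 0 bases in significant windows, and all stood in the lowest 10% in the arp5 library. They ran from 501 to 1884 bp and from 0.688 to 58.0 FPKM, and all lay beyond 30 kb from a chromosome end. H3K4me3, a ratio over the same input, was low over several of them too, at -4.60 in YPL025C, -4.67 in UTR5 and -4.66 in SHR5, and higher in ARG80 with -0.30. Along PUT4 the 3 equal parts had -3.63, -3.49 and -1.49, and along PHO4 they had -1.27, -2.65 and -4.18, so a gene's low mean could come from a stretch of it. The part of the shared input in these values was not tested.

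**Figure D4:**
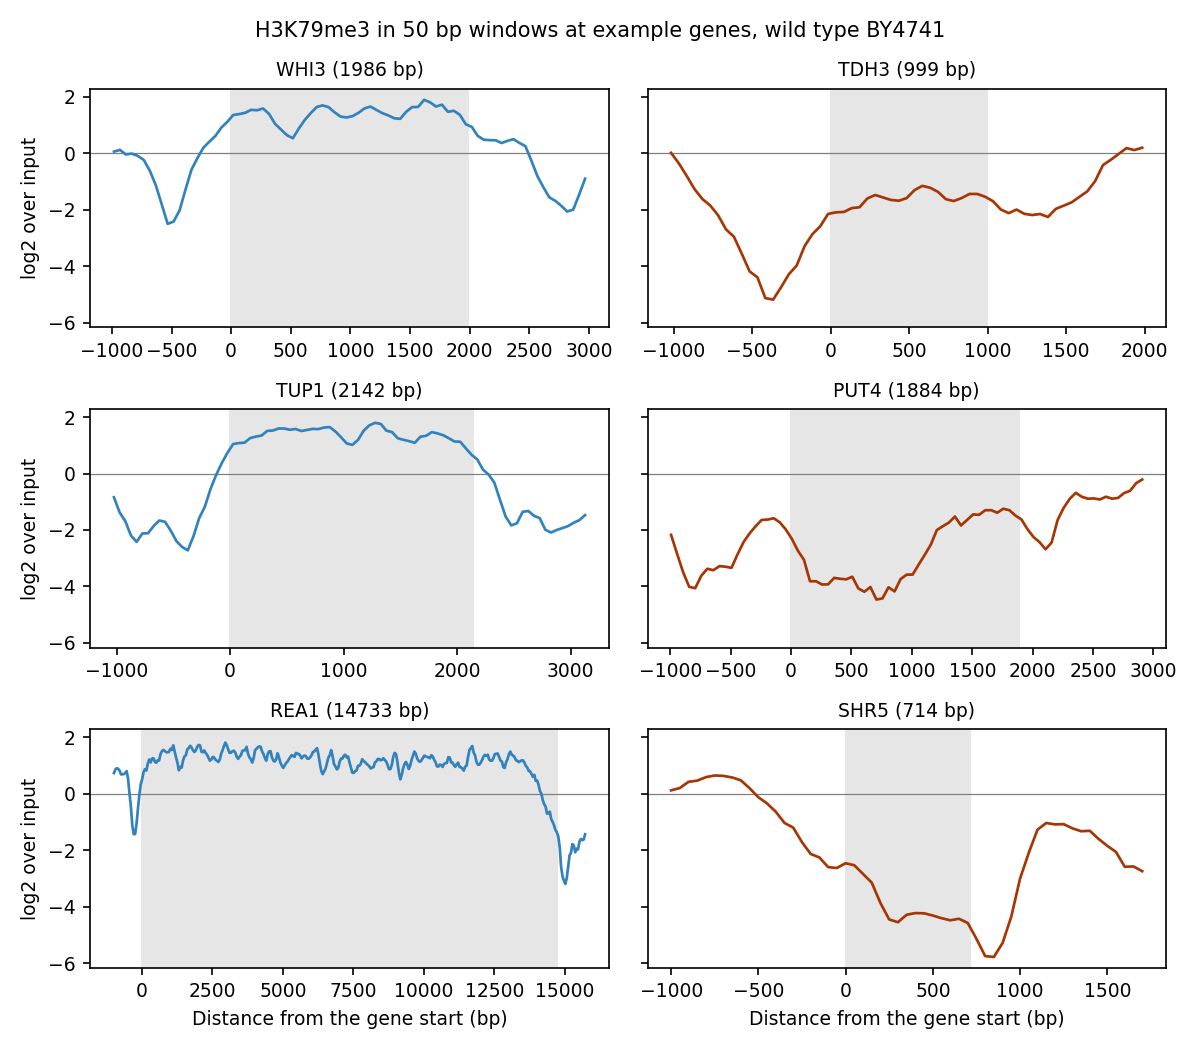
Log2 ratio of H3K79me3 over input in 50 bp windows around 6 genes of BY4741 by distance from the gene start, with the gene shaded. WHI3, TUP1 and REA1 stay above 0 over nearly their whole length, while TDH3, PUT4 and SHR5 stay below -1 inside the gene.

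Within the top FPKM quartile the highest genes were BFR1, KRI1, BRE5 with 1.24, SEC23 with 1.21 and CCT7 with 1.19, for a cofactor of a ubiquitin protease, a COPII coat protein and a chaperonin subunit. The lowest of that quartile were COI1 with -2.06, IES6 with -2.04, YRO2 with -1.87, the cell wall gene PIR1 with -1.86 and the small heat-shock gene HSP26 with -1.83. IES6, which encodes a subunit of INO80, had 185 FPKM, and its upstream flank was at -4.32. In the bottom FPKM quartile the highest were FHL1, SNF2, SEC16 with 1.21, CDC39 with 1.20 and SFL1 with 1.20, and 2 of them, SEC16 for COPII assembly and CDC39 for the scaffold of the CCR4-NOT complex, were 6588 and 6327 bp long. Of the genes over 3000 bp, EGT2, for a cell wall enzyme of cell separation, was the lowest with -0.94, before TSL1, for a trehalose synthase subunit, with -0.83, and HEF3, a little-expressed copy of a translation elongation factor gene, with -0.76.

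Of 26 groups of genes, the tRNA synthetase, ribosome biogenesis and nuclear pore genes had the highest medians. The 18 aminoacyl-tRNA synthetase genes, whose enzymes load tRNAs, had a median of 0.94, from WRS1 with 0.37 to CDC60 with 1.15, and all 18 had at least 50% of their length in significant windows, where 34.7% of all genes did. The 35 ribosome biogenesis genes also had 0.94 and 32 were so covered, with RRP5 highest and the helicase gene DBP2 lowest with -0.39. Nuclear pore genes had 0.93 with 26 of 27 covered, from SEH1 with 0.08 to NUP116 with 1.18. These 3 groups are of long genes, with median lengths of 1896, 1722 and 2520 bp. The 33 proteasome genes had 0.70 and 26 covered at a median length of 867 bp, and 32 of them stood above the median of their own length class, from PRE3 with -0.11 to RPN2 with 1.14.

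The 13 genes of the H3K79 methylation pathway all stood above the median of their length class. All 13 members had levels above 0, where 44.0% of all genes were below it, and 12 were covered, where 34.7% of all genes were. DOT1, the methyltransferase, had 0.48 (YDR440W, chromosome IV, 1342493 to 1344241, 17.9 FPKM). RAD6 and BRE1, which place ubiquitin on H2B, had 0.53 and 0.98, and LGE1, which works with BRE1, had 0.21. The Paf1 complex genes PAF1, CTR9, RTF1, CDC73 and LEO1 had 0.94, 1.10, 0.82, 0.80 and 0.77. The deubiquitinase genes UBP8 and UBP10 had 0.76 and 0.96.

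RNA polymerase II genes had a median of 0.68 over 10 members, although their median length was only 596 bp, and 9 of the 10 stood above the median of their length class. RPO21 with 5202 bp and RPB2, for the largest subunits, both had 1.24, the other members but 1 lay between 0.27 and 0.85, and RPB11, with 363 bp and 465 FPKM, stood apart with -1.39. The mitotic CLB2 cluster had 0.63 over 22 genes, from SPO12 with -0.66 to NDD1 with 1.22, and the G1/S cluster, the other cell-cycle group, -0.10 over 35, from the cyclin gene PCL1 with -1.64 to the kinase gene GIN4 with 0.59. Only 3 of those 35 stood above the median of their length class, against 17 of the 22 in the CLB2 cluster.

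Among highly expressed groups the histone and glycolysis genes stood low. HTA1 and HTA2, for histone H2A, had -2.19 and -2.09, HTB1 and HTB2, for H2B, -1.75 and -1.63, HHT1 and HHT2, for H3 itself, -1.81 and -1.58, and HHF1 and HHF2, for H4, -2.02 and -2.16. The variant and linker histone genes stood apart from these, with HTZ1 at 0.33 and HHO1 at 0.25. Of 21 genes of glycolysis and fermentation, 16 were in the lowest 25% of all genes and the median was -1.24 at a median of 3130 FPKM. TDH3 (YGR192C, chromosome VII, 882812 to 883810), for glyceraldehyde-3-phosphate dehydrogenase, had -1.60 at 31704 FPKM, with an upstream flank of -3.90. PFK1 and PFK2, the long genes of phosphofructokinase, had 0.89 and 0.65, and PDC6, a pyruvate decarboxylase gene with 1.01 FPKM, was the lowest with -2.04. Glycolysis thus held genes of very high and of very low RNA among its lowest members. The proton pump gene PMA1, chosen after its values were seen, had -1.30 at 1571 FPKM.

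Ribosomal protein genes, the most highly expressed group with a median of 5124 FPKM over 130 members, had a median of -0.15 and only 2 members covered, from RPS9A with -1.67 to RPL24B with 0.32. Their median length was 806 bp and 59 of them stood above the median of their length class. By that median they lay near other genes of their size. By coverage they stood lower, since 7.94% of genes of 300 to 749 bp and 22.4% of genes of 750 to 1249 bp were covered. Many are pairs of near-identical copies, between which reads may be split, so single members are uncertain. Mitochondrial ribosomal protein genes, of like length, had 0.24, and 57 of 63 stood above the median of their class, from MRPL37 with -1.10 to MRP20 with 0.95. Respiration genes had 0.11, from CYC7 with -1.98 to ATP1 with 0.99, and amino acid synthesis genes 0.31, from ARG3 with -1.55 to ILV2 with 1.11.

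**Figure D5:**
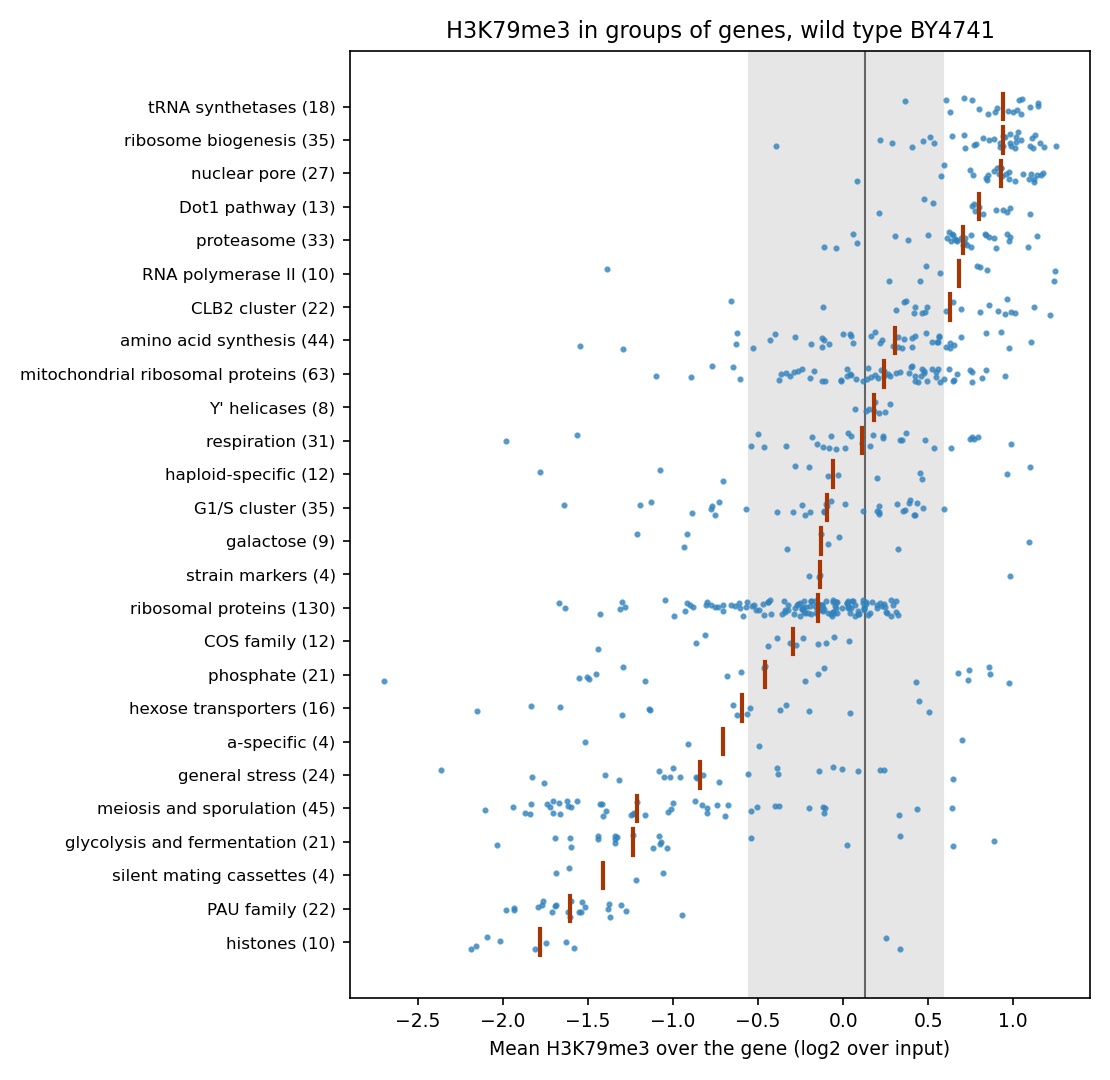
Gene levels of H3K79me3 (log2 over input) in 26 groups of genes, with a dot for each member, a bar for the group's median and its number of members in brackets. The grey band is the middle 50% of all genes, -0.55 to 0.59, with a line at their median of 0.13. The medians run from -1.78 for histone genes to 0.94 for tRNA synthetase genes.

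Several groups of genes for meiosis, stress and nutrients had medians below 0. Of 45 meiosis and sporulation genes 42 were below 0, where 44.0% of all genes were, and 34 were in the lowest 25%. Their median level was -1.21 at a median of 4.78 FPKM, from the septin gene SPR3 with -2.11 to MUM2 with 0.64. Their median length was 1403 bp, and genes of 750 to 1999 bp from 2 to 5 FPKM had a median of -0.94. Of 24 general stress genes 15 were in the lowest 25%, with a median of -0.84 and a median of 51.9 FPKM, from SPG4 with -2.36 to the chaperone gene SSA3 with 0.65, and only 1 stood above the median of its length class. Hexose transporter genes had -0.59 at a median of 3.54 FPKM, from HXT14 with -2.15 to HXT17 with 0.51. Phosphate genes had -0.46 at a median of 103 FPKM and were split, since PHO4, PHO89 with -1.51 and the transporter gene PHO84 with -1.16 were low and PHO2, a co-activator with PHO4, had 0.98. Galactose genes had -0.13 at a median of 6.05 FPKM, from GAL7 with -1.21 to GAL11 with 1.09. GAL11, a Mediator gene, had 16.3 FPKM and fell in the second FPKM quartile.

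Among mating-type genes and genes of silent loci or chromosome ends, the cassettes and the PAU genes stood low throughout. The other groups were mixed in level, but most of their members stood below the median of their length class. Haploid-specific genes had -0.06 with 3 of 12 in the lowest 25%, from the endonuclease gene HO with -1.78 to STE12, for the activator of the pheromone response, with 1.10. Of the a-specific genes, 4 of 7 were long enough to be described, with a median of -0.70, from ASG7 with -1.52 to the pheromone exporter gene STE6 with 0.70. The genes of the silent cassettes on chromosome III were all in the lowest 25%, HMLALPHA1 with -1.69, HMRA1 with -1.61, HMLALPHA2 with -1.22 and HMRA2 with -1.06. The 22 seripauperin (PAU) genes were all in the lowest 25% too, with a median of -1.60, from PAU15 with -1.98 to PAU2 with -0.95. These PAU genes are short and had little RNA, with medians of 363 bp and 2.16 FPKM. The 462 genes of 300 to 749 bp in the bottom FPKM quartile had a median of -1.5. COS genes had -0.29 with 3 of 12 in the lowest 25%, from COS12 with -1.44 to COS6 with 0.04. The 8 helicase genes of the Y' elements had 0.18, none of them below 0, from YRF1-7 with 0.07 to YRF1-5 with 0.28. These Y' genes are long, with a median of 5391 bp, and stood 0.52 below the median of their length class. Of the 8, 0 were covered, against 80.2% of all genes of 3000 bp and over. Above the median of their class stood 4 of 12 haploid-specific, 0 of 4 a-specific, 1 of 12 COS and 0 of 8 Y' genes. The cassettes share sequence with the mating-type locus, and PAU, COS and Y' genes have near-identical copies, so reads may be shared among copies and their levels are uncertain.

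By distance from a chromosome end the median level was -0.31 for 146 genes within 10 kb, -0.79 for 140 genes from 10 to 20 kb, -0.09 for 135 genes from 20 to 30 kb and 0.16 for the 5809 genes beyond 30 kb. The genes within 20 kb were shorter, with a median of 774 bp, and had a median of 7.32 FPKM. Against the median of their own length class the 4 groups stood at -0.52, -0.64, -0.23 and 0.02.

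The 4 marker genes of the strain checked the strain label. MET17, LEU2 and URA3, which BY4741 lacks, had 0.12, 0.68 and 0.23 FPKM, and HIS3, which is only partly deleted, had 165. Their ratios of -0.14, -0.14 and 0.98, and -0.20 for HIS3, come from DNA that is missing in whole or in part and are no measure of the mark. The first of 3 equal parts of LEU2 and of MET17 stood at exactly 0.

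Genes with an intron had a median of -0.15 over 269 genes and those without 0.15. Intron genes had a median of 270 FPKM and 874 bp, and stood 0.15 below the median of their length class. The 521 genes that the RefSeq table does not list had a median of -0.56 against 0.18 for the 5709 that it lists, with a median length of 375 bp. Across all 6230 genes the rank correlation between BY4741 and arp5 levels was 0.93, a description over 2 genotypes with separate inputs.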

How the data were processed

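The ChIP values are log2 ratios of precipitate over input in 50 bp windows, made and deposited by the authors, with reads aligned by Bowtie 0.12.9 to sacCer3 per the submitters' processing notes. Their scaling, and the caller and threshold of the deposited list of significant windows, were not given in the sources used here. RNA values are FPKM deposited by the authors, from TopHat2 2.0.8 and Cuffdiff 2.0.2 per the submitters' processing notes, with 1 column per genotype, so replicates were pooled before deposit. Gene coordinates are the authors' and follow coding sequences. Symbols come from a RefSeq table.

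Windows were laid over nuclear genes of at least 300 bp with Python 3.11.15, pandas 2.3.3 and NumPy 2.4.6. FPKM quartiles are ranks over these genes. The calculation was checked on simulated tracks. Members, lists and length classes were chosen with earlier results of these data known. Named genes are, among genes of at least 500 bp with values over 90% of their length and without strain markers, the 12 highest and lowest, the 10 lowest beyond 30 kb from an end (which are among the 12), the 5 highest and lowest of the top and bottom FPKM quartiles, the 3 highest and lowest over 3000 bp, the extremes of each list, the 13th at each end, the markers, DOT1, HHT1 and HHT2. Other list members and PMA1 were named after their values were seen. Alternatives changed the length minimum, overlaps, FPKM filter, expression column, annotation and coverage limit.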

Additional observations from a re-analysis of the deposited data

How the results depend on the processing

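No paired analysis was possible because the map has 1 precipitate and 1 input and no replicate. Of 77 alternative values 60 stayed within 0.1 (log2 or rank correlation) or 1.5 times (counts), 17 moved and 0 reversed. Some of the 60 could not move and say nothing of stability. The CY337 column enters only the results that use FPKM. Subtracting the median of all windows cancels from every difference and from the rank correlation. The rise from the first to the middle of 3 parts of the gene, 0.34, ran from 0.27 to 0.37 in all 11 alternatives. Among these, the CY337 column and the subtracted median could not change it.

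The difference between the top and bottom FPKM quartiles, 0.24, was the least settled: 0.095 without overlapping genes, 0.35 for genes of at least 1000 bp, 0.096 for genes of at least 1 FPKM, 0.43 with the expression of CY337, another wild type strain. In alternatives chosen after seeing the data it was 0.079 without genes missing from the RefSeq table, and 0.64 and 0.92 within 750 to 1249 bp and 1250 to 1999 bp, with quartiles set anew in each class. The rank correlation of FPKM with the level, 0.085, became 0.19 for genes of at least 1000 bp, and 0.32 and 0.42 within the same classes. In the 10 alternatives counted as unmoved it ran from 0.032, without genes missing from the RefSeq table, to 0.15 with the expression of CY337. For this value the tolerance of 0.1 is larger than the value itself. The gene over its upstream flank, 1.35, became 1.66 for genes of at least 1000 bp. The longest minus the shortest class, 1.23, became 1.34 without overlapping genes, 0.60 for genes of at least 1000 bp and 1.38 with no length minimum. Genes below 0 numbered 977 for genes of at least 1000 bp, against 2741 among all 6230. Counts over fewer genes can only fall or stay, whether called moved or unmoved, so they do not give the share of genes below 0 or covered. Covered genes fell from 2159 to 1061 at 75% of the length and to 582 with windows of log2 1 or more. Causes were not tested beyond the smaller number of genes or windows that these settings leave. The map has no replicate and unknown depth, so no value has an error.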
